A study of Mus musculus with 8 samples.

Results

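Superficial dermal fibroblasts are the cells of the upper dermis that lie under the epidermis of embryonic back skin. They were chosen by detected genes in 4 single-cell RNA libraries of mouse back skin at embryonic day 15 (E15), and 1968 cells met the rule, of 3592 E15 barcodes that passed the cell filter and 7486 in the 8 libraries of the whole series. The E15 libraries were 2 knockouts (KO 1 and KO 2), labelled as knockouts by a ΔNp63-GFP knock-in allele of Trp63, and 2 controls, 1 wild type (WT) and 1 heterozygous (HET) for that allele. Trp63 encodes p63, a transcription factor of stratified epithelia, and the labels name no driver that would limit the allele to a tissue. The skin was dissected, digested with collagenase and trypsin and made into 10x 3' libraries, so reads come from the ends of transcripts. The E15 libraries held between 8177867 and 21551811 UMIs, of which the members gave between 4389089 and 8034118. A further 2 KO, 1 WT and 1 HET libraries of the same alleles at embryonic day 13 (E13) were used for comparison. No label gave the number of embryos in a library, so p-values cover only how far libraries of a group lay apart, which may be technical.

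The embryonic dermis is built by fibroblasts that divide into a papillary layer, which stays next to the epidermis, and a reticular layer with the fat lineage beneath it. Papillary fibroblasts receive Wnt, Hedgehog and fibroblast growth factor (FGF) signals from the epidermis, and a few of them gather under each hair placode as a dermal condensate, the forerunner of the dermal papilla. Deeper fibroblasts lay down collagen and elastic fibres, and loss of p63 leaves the embryo without a stratified epidermis.

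The rule counted how many of 5 superficial genes (Crabp1, Egfl6, Pth1r, Cldn10 and Twist2) and how many of 5 deep genes (Clec3b, Mfap5, Ly6a, Agtr2 and Igfbp6) a cell had at least 1 UMI of, a UMI being a unique molecular identifier that marks 1 captured RNA molecule. A cell was a member when the first number exceeded the second by at least 2. It also had at least 1000 genes, at most 10% mitochondrial UMIs, fewer than 3 of 6 epithelial genes, and no UMI of Cdh5, Ptprc, Sox10, Myog or Rgs5. KO 1 gave 522 members and KO 2 gave 593, against 311 in WT and 542 in HET. Members had a median of 12302.5 and 12182 UMIs per cell in KO 1 and KO 2, against 13591 in WT and 13756.5 in HET. The KO cells were thus somewhat shallower, and the 4 libraries shared 12 cell barcodes in all, at most 6 between any pair. The targeted gene was read first. Trp63 had 2 and 0 UMIs in members of KO 1 and KO 2, against 42 in WT and 27 in HET, and in the excluded epithelial barcodes 0 and 2 UMIs in KO 1 and KO 2, against 124 in WT and 63 in HET. The labels do not say which part of the transcript the allele removes, so these end reads check the genotype only as far as they reach it.

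Because the genes of the rule chose the cells, their levels are a description with no test. Crabp1, which encodes a retinoic acid binding protein, was at 2698 and 2167 CPM in KO 1 and KO 2, against 2177 in WT and 2762 in HET. CPM is a gene's UMI count summed over the members of a library, divided by that library's UMI total on the usual scale. It is given with TMM, a library size correction, unless stated. Sums over a gene list, levels in cells grouped by marker difference and levels pooled over libraries are without TMM scaling. Egfl6, a secreted matrix protein gene, was at 759 and 749 CPM in KO 1 and KO 2, against 539 in WT and 546 in HET. Twist2, a dermal transcription factor gene, was at 861 and 782 CPM in KO 1 and KO 2, against 1050 in WT and 1039 in HET. Crabp1 thus overlapped between the groups, while Egfl6 was higher and Twist2 lower in both KO libraries. Just inside the rule, at a difference of 2, Crabp1 was at 1652 CPM in KO 1 and 1499 in KO 2, against 1241 in WT and 1321 in HET. Just outside it, at a difference of 1, the levels were 766 and 464 CPM in KO 1 and KO 2, against 466 in WT and 545 in HET. Crabp1 was lower just outside the rule in every library.

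Members took up a smaller share of the cells left after the exclusions in both KO libraries, 73.9% in KO 1 and 66.5% in KO 2, against 80.2% in WT and 90.9% in HET. The exact 95% binomial intervals, which cover counting error only, were 70.5 to 77.1% and 63.3 to 69.6% in KO 1 and KO 2, against 75.8 to 84.0% in WT and 88.3 to 93.1% in HET. The means were 70.2% ± 5.27 in KO and 85.5% ± 7.63 in control (SD, n = 2 each), and a two-sided exact permutation test over libraries gave p = 0.333, the smallest that 2 against 2 allows. Members with no deep gene at all made up 31.4% and 26.1% in KO 1 and KO 2, against 48.9% in WT and 64.8% in HET. UMIs of the deep genes were thus more often present in KO members, and the fold changes were also computed in members with no deep gene, an alternative chosen after seeing the data.

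**Figure D1:**
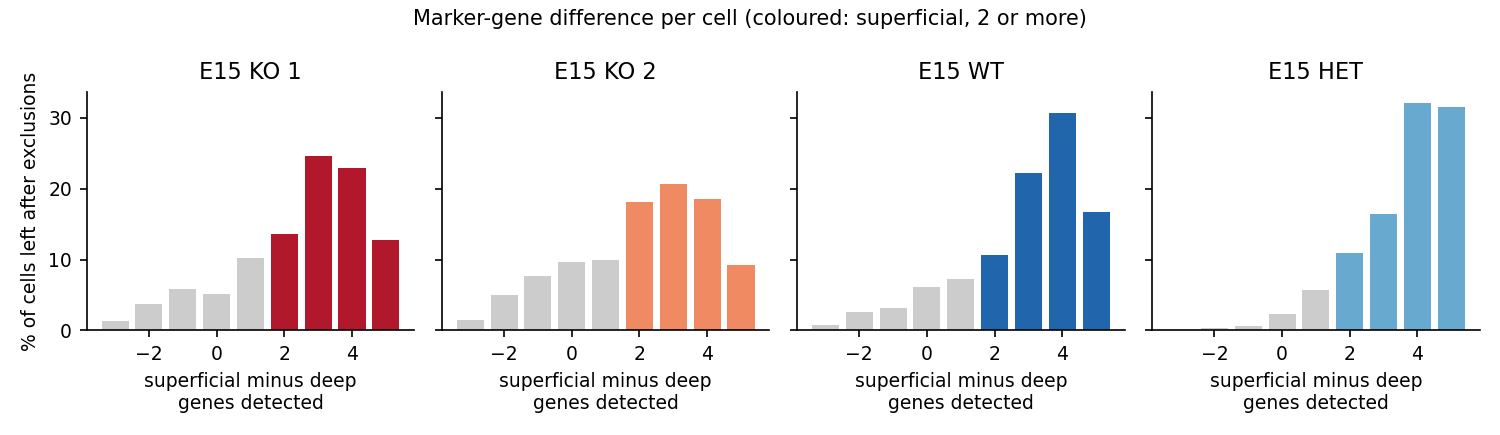
Number of superficial minus number of deep genes detected per cell (horizontal axis) against the percentage of cells left after the exclusions (vertical axis), 1 panel per library, with members coloured. Members made up 73.9% and 66.5% of cells in KO 1 and KO 2, against 80.2% in WT and 90.9% in HET.

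The programme that members share beyond the rule was read from the 25 genes with the largest ratio of superficial to deep level, of genes with at least 50 CPM in every library. Of these, 4 are genes of the rule and all 25 were higher in members than in the other fibroblast-range cells of all 4 libraries, which the choice of cells itself favours. Among the secreted Wnt antagonists, Sfrp5 reached 64.9 and 119 CPM in KO 1 and KO 2 members, against 87.0 in WT and 120 in HET. These Sfrp5 levels are without TMM scaling. Wif1, named as a marker of these cells, was at 89.5 and 157 CPM in KO 1 and KO 2, against 227 in WT and 209 in HET, lower in both KO libraries with a log2 fold change of -0.82 ± 0.22 (SE). Its adjusted p was 0.0755 by edgeR, so it was not called. The transcription factor gene Bcl11b was at 238 and 218 CPM in KO 1 and KO 2, against 238 in WT and 223 in HET, with a log2 fold change of -0.02 ± 0.11. Irx1, an Iroquois homeobox gene, was at 196 and 179 CPM in KO 1 and KO 2, against 201 in WT and 195 in HET. Markers of fibroblasts in general were high in all members, with Col1a1 at 4968 and 6664 CPM in KO 1 and KO 2, against 4595 in WT and 3929 in HET. The marker genes that name the cells were thus detected in both groups, with Wif1 the lowest in KO members relative to control.

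Across all genes, edgeR's quasi-likelihood test on UMIs summed per library called 533 of 11863 genes tested between KO and control (4.49%) at an adjusted p under 0.05. Of these, 283 were higher in KO (2.39%) and 250 lower (2.11%), 1 of them (Ly6a) a gene of the rule. KO and control libraries did not overlap in CPM for 6189 genes (52.2%), so a lack of overlap alone says little. The count was 92 without WT, 247 without KO 2, 318 without HET and 354 without KO 1. Of the 25 programme genes, 21 were not in the rule, 5 of these rose in KO and 3 fell. Those that rose were Rspo1, Irx5, Htra1, Cxcl14 and Irx3, by 1.70, 0.74, 1.03, 0.93 and 0.80 on the log2 scale. Those that fell were Stmn2, Col7a1 and Cav1, with log2 fold changes of -1.48, -0.54 and -1.19. Cav1, the gene of the membrane protein caveolin 1, was at 135 and 119 CPM in KO 1 and KO 2, against 306 in WT and 273 in HET. Without WT only 1 of the 8 calls was kept, that of Cav1, and without KO 1, KO 2 and HET 5, 7 and 4 were kept.

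Of 11 Wnt response genes tested, 3 were lower in KO members and none rose, while antagonist, ligand and receptor genes moved both ways. Lef1, the transcription factor gene that is itself a target of the pathway and a marker of papillary dermis (chromosome 3, 131110471 to 131224356, plus strand, GRCm38), was at 18.1 and 19.1 CPM in KO 1 and KO 2, against 77.9 in WT and 66.9 in HET. Its log2 fold change was -1.95 ± 0.14 (SE) with an edgeR adjusted p of 0.000501. Nkd1, a feedback inhibitor of the pathway, was at 84.5 CPM in both KO libraries, against 195 in WT and 156 in HET (log2 fold change -1.05 ± 0.13). Axin2, another feedback gene, fell by 0.56 on the log2 scale, a call that was lost when any 1 library was left out. The median log2 fold change of the list was -0.56 against -0.01 over all genes tested, and Sp5, which did not pass, was at 0.52. Dkk1, a secreted inhibitor of Wnt receptors (chromosome 19, 30545863 to 30549665, minus strand), was at 6.48 and 5.16 CPM in KO 1 and KO 2, against 43.8 in WT and 46.9 in HET, with a log2 fold change of -2.97 ± 0.17 and an adjusted p of 0.000153 by edgeR. The groups were far apart for both Lef1 and Dkk1, with no overlap between libraries.

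Of 10 Wnt antagonist genes tested, Dkk1, Frzb, Kremen1 and Kremen2 fell, and Dkk2 and Sostdc1 rose. Kremen2 was far lower in control members than in control epithelial barcodes, with its ratio given below under RNA of other cells. Dkk2 was at 20.6 and 21.6 CPM in KO 1 and KO 2, against 7.15 in WT and 8.05 in HET. Without WT, Dkk1 alone of the 6 kept its call, while 4 kept it without KO 1, 3 without KO 2 and 3 without HET. Of 20 ligand and receptor genes tested, Wnt6 and Rspo3 fell, and Rspo1 and Fzd1 rose. Rspo1, a secreted amplifier of Wnt signals and a programme gene, was at 262 and 174 CPM in KO 1 and KO 2, against 60.4 in WT and 73.4 in HET (log2 fold change 1.70 ± 0.20), and without WT its value of 1.57 was not called. Fzd1, a Wnt receptor gene, was at 53.9 and 45.4 CPM in KO 1 and KO 2, against 25.6 in WT and 21.2 in HET.

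Hedgehog is a signal that placodes send to the dermis, and 3 of its 10 response genes tested were lower in KO members, while 4 had a positive fold change and none rose. Ptch1, the Hedgehog receptor gene that the signal itself induces (chromosome 13, 63508328 to 63573598, minus strand), was at 18.7 and 21.6 CPM in KO 1 and KO 2, against 86.0 in WT and 70.6 in HET (log2 fold change -1.95 ± 0.15, edgeR adjusted p 0.000549). Gli1, the effector gene that reports the pathway, was at 17.1 and 13.1 CPM in KO 1 and KO 2, against 31.1 in WT and 29.2 in HET (log2 fold change -1.0 ± 0.17). The summed level of the list overlapped between groups, at 757 and 652 CPM in KO 1 and KO 2, against 754 in WT and 670 in HET. The transducer Gli2 did not pass the test, at 17.1 and 13.5 CPM in KO 1 and KO 2, against 28.1 in WT and 20.7 in HET. Ptch1 kept its call without any 1 library, and Gli1 lost it without KO 2, WT or HET.

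Lef1 and Ptch1 carry the Wnt and Hedgehog results, and their promoter windows from RefSeq (GRCm38.p6) are shown because both genes fell. Each window runs from 250 bases before to 50 after an annotated start, 5′ to 3′ on the gene's strand. The Lef1 window is chr3:131110047-131110346 on the plus strand, the first of 4 for that gene, and the Ptch1 window is chr13:63565686-63565985 on the minus strand. These RefSeq starts differ from the GENCODE gene positions given above. The Ptch1 window lies inside the GENCODE gene, and the Lef1 window ends before the GENCODE gene begins.
Lef1: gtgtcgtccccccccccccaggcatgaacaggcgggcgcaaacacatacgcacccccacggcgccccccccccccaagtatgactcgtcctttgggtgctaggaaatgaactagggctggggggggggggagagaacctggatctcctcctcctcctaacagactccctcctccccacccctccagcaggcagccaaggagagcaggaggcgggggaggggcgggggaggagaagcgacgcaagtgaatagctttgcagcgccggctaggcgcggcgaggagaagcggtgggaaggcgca
Ptch1: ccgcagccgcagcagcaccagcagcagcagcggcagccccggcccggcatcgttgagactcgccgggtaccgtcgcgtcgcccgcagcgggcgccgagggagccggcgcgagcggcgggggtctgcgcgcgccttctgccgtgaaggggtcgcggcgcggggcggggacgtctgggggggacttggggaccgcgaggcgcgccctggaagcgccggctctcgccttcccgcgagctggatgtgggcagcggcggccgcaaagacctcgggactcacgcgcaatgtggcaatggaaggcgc
The GLI motif GACCACCCA, which 0.253% of 32851 promoter windows hold on either strand, and the TCF/LEF motif CTTTGAT, which 3.73% hold, were searched on both strands. Neither stood in the windows of Lef1, Ptch1, Axin2, Nkd1 or Dkk1, so no base is in capitals, which says only that these letters are not in these windows.

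Of 13 genes of FGF receptor and ERK signalling tested, 6 fell in KO members and 7 did not pass. Dusp6, the phosphatase that ERK induces to limit itself, was at 7.95 and 8.74 CPM in KO 1 and KO 2, against 32.3 in WT and 27.0 in HET (log2 fold change -1.81 ± 0.18). Etv5, one of the ETS factor genes that FGF induces, was at 10.2 and 9.53 CPM in KO 1 and KO 2, against 27.2 in WT and 30.0 in HET. The related Etv4 was at 0.589 and 1.06 CPM in KO 1 and KO 2, against 7.84 in WT and 13.5 in HET. Fgfr1, the receptor gene, was at 148 and 141 CPM in KO 1 and KO 2, against 337 in WT and 292 in HET (log2 fold change -1.12 ± 0.12). Those that fell were Dusp6, Etv1, Etv4, Etv5, Spry1 and Fgfr1. None of the 13 had a positive fold change, and the median was -0.97 on the log2 scale, with -0.22 for Egr1 and -0.34 for Spry2 among those that did not pass. The call of Spry1 was lost without KO 2 or WT, and the other 5 kept theirs without any 1 library.

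Among the genes that answer bone morphogenetic protein (BMP), the Id genes, whose proteins block the DNA binding of other factors, were lower. Id1 was at 52.3 and 44.4 CPM in KO 1 and KO 2, against 119 in WT and 156 in HET (log2 fold change -1.52 ± 0.16). Id3 was at 100 and 102 CPM in KO 1 and KO 2, against 279 in WT and 226 in HET (log2 fold change -1.32 ± 0.13). Of 12 genes of the BMP and TGF-beta list tested, Id1, Id2, Id3 and Nog, a BMP antagonist gene, fell, and Tgfbi, a matrix gene that TGF-beta induces, rose. Without WT the calls of Id2, Nog and Tgfbi were lost, and Nog lost its call without any 1 library. Tgfb2, a TGF-beta ligand gene, was among the 15 largest rises, at 54.2 and 39.3 CPM in KO 1 and KO 2, against 11.8 in WT and 10.3 in HET. In the Notch list, Notch1, Dll1 and Hey1 fell of 8 tested, and only Hey1 kept its call without WT or KO 2.

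**Figure D2:**
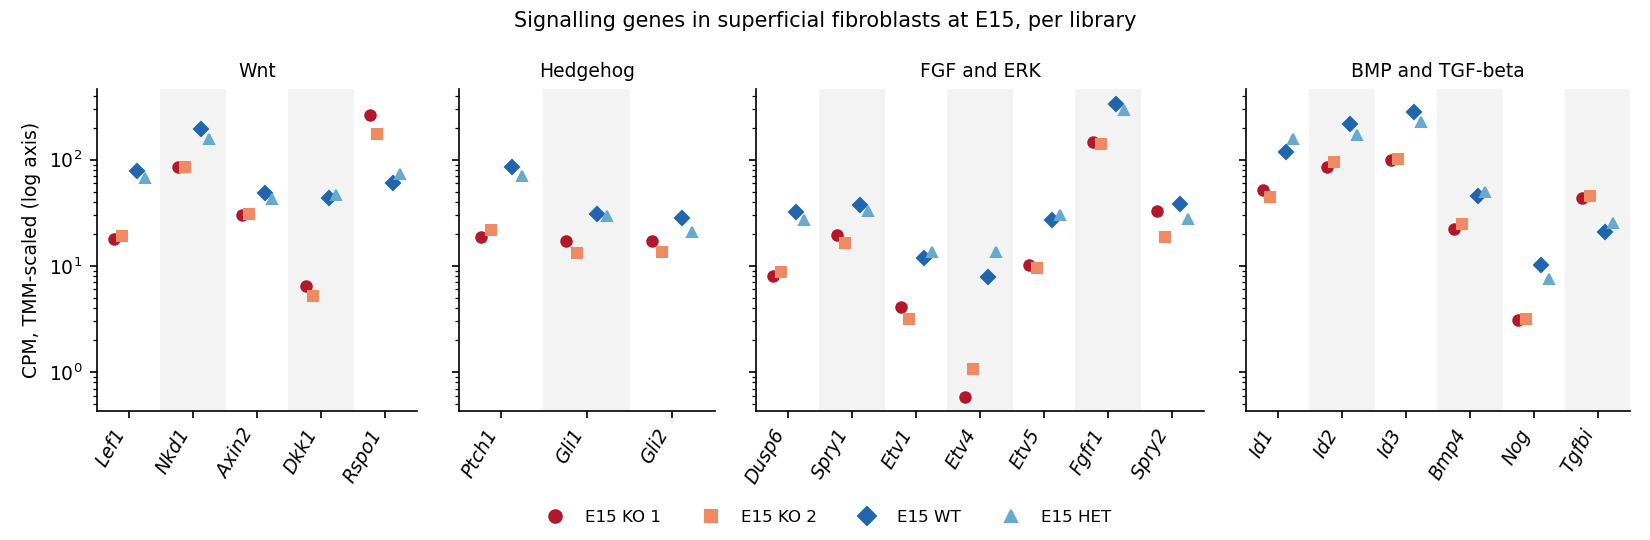
CPM of signalling genes in members (log axis), 1 point per E15 library, KO libraries left of control libraries for each gene. Lef1 was at 18.1 and 19.1 CPM in KO 1 and KO 2, against 77.9 in WT and 66.9 in HET, and Rspo1 and Tgfbi were higher in both KO libraries.

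Of the dermal condensate genes, the 3 transcription factor genes Sox2, Sox18 and Foxd1 had at most 1 UMI in each KO library, while the list as a whole summed to 256 and 258 CPM in KO 1 and KO 2, against 385 in WT and 362 in HET. Sox2, a condensate transcription factor gene (plus strand of chromosome 3, 34650405 to 34652461), was read as 0 and 1 UMIs in KO 1 and KO 2, against 25 in WT and 41 in HET. Sox18, another condensate factor, had 1 UMI in each KO library, against 88 in WT and 68 in HET. Foxd1 had 1 and 0 UMIs in KO 1 and KO 2, against 43 in WT and 42 in HET. All 3 genes passed the edgeR test with adjusted p of 0.00381, 0.00336 and 0.0045 for Sox2, Sox18 and Foxd1, and kept their calls without any 1 library. A UMI of at least 1 of the 3 was found in 2 members of KO 1 (0.383%) and 2 of KO 2 (0.337%), against 41 of WT (13.2%) and 50 of HET (9.23%). The 2 groups were 0.36% ± 0.03 and 11.2% ± 2.80 (KO and control, SD, n = 2 each), with an exact permutation p of 0.333, the smallest possible. With every cell thinned to 2000 UMIs the shares were 0.192% in KO 1 and 0 of 593 cells in KO 2, which allows up to 0.506%, against 5.79% in WT and 3.32% in HET. For the background of free RNA, barcodes with a Ptprc UMI and fewer than 3 epithelial genes were read. Fibroblasts with a stray Ptprc UMI were not removed from them, so they may hold more than free RNA. Of these barcodes, 1 of 59 and 1 of 55 had such a condensate factor UMI in KO 1 and KO 2, against 0 of 22 in WT and 2 of 40 in HET. Their median depths were 17531 and 14431 UMIs in KO 1 and KO 2, against 17235.5 in WT and 19603 in HET, and the KO members' share is below theirs. Fewer condensate cells and less RNA per cell cannot be told apart.

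Members with at least 3 genes of the whole list made up 35.1% and 33.2% in KO 1 and KO 2, against 37.3% in WT and 41.1% in HET. Of 12 condensate genes tested, 8 fell and 1 rose. Bmp4, a condensate signal, was at 22.1 and 24.8 CPM in KO 1 and KO 2, against 45.2 in WT and 49.7 in HET (log2 fold change -1.02 ± 0.13). Once the cells with a UMI of Sox2, Sox18 or Foxd1 were left out, an alternative chosen after seeing the data, its log2 value was -0.16 and it was not called. That setting puts the 3 factor genes at 0 in every library by construction and leaves out far more control than KO cells, so the calls that the list lost under it are not counted. Under the same setting Lef1 kept a value of -1.74, Ptch1 -1.43, Dkk1 -2.87 and Dusp6 -1.81, all called. These 4 genes were thus lower also in cells with no UMI of the 3 factors. Enpp2, which the list also holds, rose, at 35.8 and 36.2 CPM in KO 1 and KO 2, against 24.9 in WT and 21.5 in HET, a call lost without any 1 library. Of the 9 calls, 4 were kept without WT (those of Sox2, Sox18, Foxd1 and Bmp4), 5 without HET, 6 without KO 2 and 7 without KO 1.

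**Figure D3:**
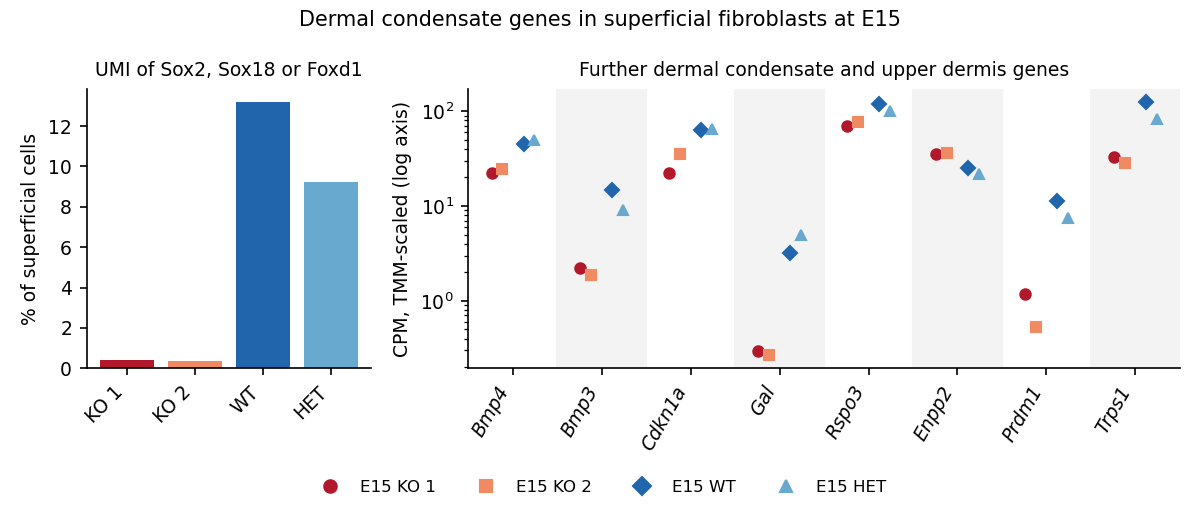
Left, percentage of members with a UMI of Sox2, Sox18 or Foxd1 in each library; right, CPM of further condensate and upper dermis genes in members (log axis), KO libraries left of control libraries. The share was 0.383% and 0.337% in KO 1 and KO 2, against 13.2% in WT and 9.23% in HET.

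Beside the rule's own genes, other markers of the upper and lower dermis were compared. Of 13 upper dermis genes tested, Prdm1, Dkk1, Lef1 and Trps1 fell and none rose. Prdm1, a repressor gene of papillary fibroblasts, was at 1.18 and 0.53 CPM in KO 1 and KO 2, against 11.3 in WT and 7.55 in HET, a call lost without WT. Trps1, a zinc finger factor gene of hair follicle mesenchyme, was at 33.1 and 28.2 CPM in KO 1 and KO 2, against 126 in WT and 82.8 in HET (log2 fold change -1.76 ± 0.20). Of 10 lower dermis and fat genes tested, only Cd34, a surface protein gene of deeper fibroblasts, was called, at 129 and 175 CPM in KO 1 and KO 2, against 61.3 in WT and 55.8 in HET (log2 fold change 1.38 ± 0.16). It kept that call in members with no deep gene and without any 1 library.

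The largest rises in KO members were of matrix and secreted protein genes. Mfap4, which encodes a glycoprotein of elastic microfibrils (chromosome 11, 61485431 to 61488900, plus strand), was at 918 and 1012 CPM in KO 1 and KO 2, against 151 in WT and 170 in HET, with a log2 fold change of 2.59 ± 0.13 and an edgeR adjusted p of 0.000153. With each cell thinned to 2000 UMIs, Mfap4 was detected in 74.7% and 71.7% of members of KO 1 and KO 2, against 15.4% in WT and 25.1% in HET. Ptprc barcodes, thinned alike, had it in 18.6% and 27.3% in KO 1 and KO 2, against 0 of 22 in WT (which allows up to 13.6%) and 0 of 40 in HET (up to 7.5%). Eln, the gene of elastin (chromosome 5, 134702593 to 134747323, minus strand), was at 263 and 241 CPM in KO 1 and KO 2, against 84.4 in WT and 83 in HET (log2 fold change 1.59 ± 0.11). Postn, a matrix protein gene of connective tissue, was at 397 and 501 CPM in KO 1 and KO 2, against 176 in WT and 109 in HET (log2 fold change 1.66 ± 0.22). Aspn, a small leucine-rich proteoglycan gene, was at 119 and 130 CPM in KO 1 and KO 2, against 31.3 in WT and 25.3 in HET. The 2 KO libraries lay above both controls for all 4 genes, which also kept their calls in members with no deep gene.

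Of 24 fibrillar matrix genes tested, 9 rose, none fell and 23 had a positive fold change, with a median of 0.59 on the log2 scale against -0.01 over all genes. The 9 were Fn1, Eln, Fbln1, Dcn, Bgn, Postn, Tnc, Loxl1 and Lox, which encode fibronectin, fibre and proteoglycan proteins and the enzymes that cross-link them. Dcn, the decorin gene, was at 2849 and 4049 CPM in KO 1 and KO 2, against 1640 in WT and 1820 in HET. Lox, a cross-linking enzyme gene, was at 236 and 248 CPM in KO 1 and KO 2, against 145 in WT and 106 in HET. The main collagen genes did not pass, with log2 fold changes of 0.45 ± 0.17 for Col1a1 and 0.27 ± 0.13 for Col3a1. Of the 9 calls, 7 were kept without KO 1, 8 without KO 2, 5 without WT and 4 without HET, with those of Fn1, Eln, Postn and Lox under each of these.

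Mfap4 was also read across the marker difference that chose the cells. At differences of 2, 3, 4 and 5, KO 1 cells had 1055, 838, 905 and 861 CPM of Mfap4 without TMM scaling, and KO 2 cells had 1125, 1048, 928 and 922. At the same differences WT cells had 317, 213, 90.9 and 58.5 CPM, and HET cells had 412, 147, 139 and 137. The difference between KO and control was thus smallest just inside the rule. These groups of cells come from the same libraries and were not tested. Lef1 at a difference of 5 was at 24.4 and 20.1 CPM in KO 1 and KO 2, against 106 in WT and 69.4 in HET.

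**Figure D4:**
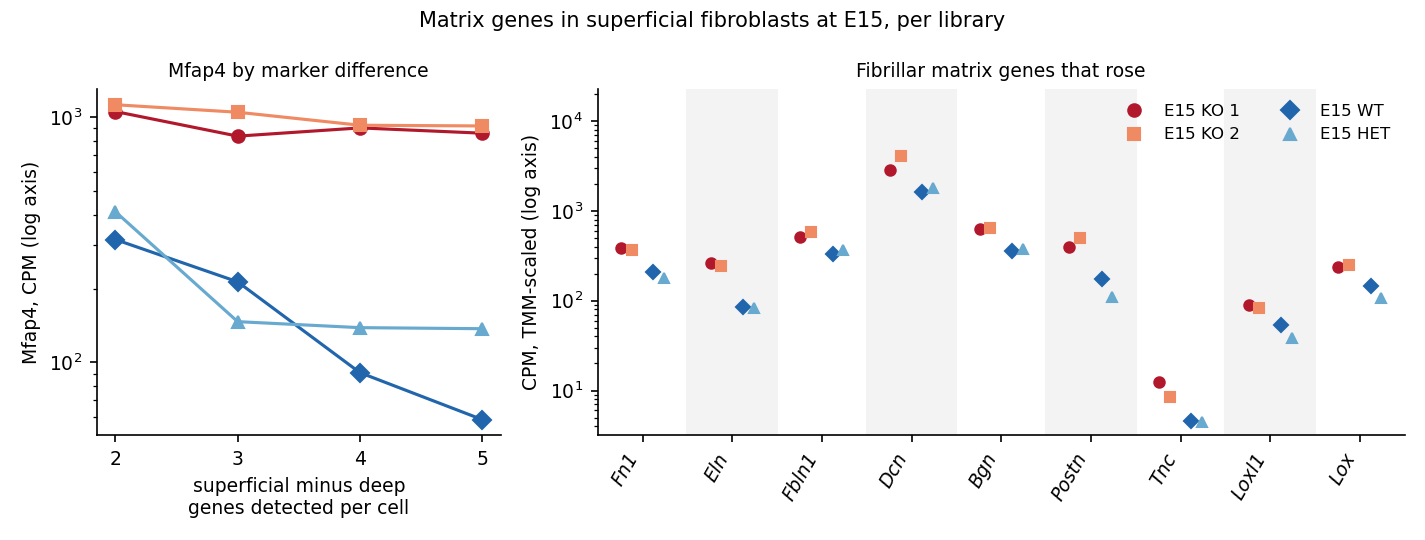
Left, CPM of Mfap4 (log axis) in members grouped by the difference of superficial and deep genes detected, 1 line per library; right, CPM (log axis) of the 9 fibrillar matrix genes that rose, KO libraries left of control libraries. At a difference of 5, Mfap4 was at 861 and 922 CPM in KO 1 and KO 2, against 58.5 in WT and 137 in HET.

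Several genes of secreted signals were higher in KO members. Cxcl12, a chemokine gene, was at 329 and 317 CPM in KO 1 and KO 2, against 123 in WT and 119 in HET (log2 fold change 1.42 ± 0.11). Cxcl14 and Ccl11, the other chemokine genes called, rose by 0.93 and 2.03 on the log2 scale, of 10 genes of that list tested, and lost their calls without WT (Cxcl14) and without either KO library (Ccl11). Igf2, the insulin-like growth factor 2 gene, was at 1258 and 1232 CPM in KO 1 and KO 2, against 520 in WT and 528 in HET (log2 fold change 1.25 ± 0.12). Fgf7, a growth factor gene that acts on epithelia, was at 10.3 and 10.2 CPM in KO 1 and KO 2, against 1.38 in WT and 1.61 in HET. Nppc, the gene of C-type natriuretic peptide, was at 52.0 and 45.8 CPM in KO 1 and KO 2, against 5.07 in WT and 8.42 in HET (log2 fold change 2.78 ± 0.20). Prss35, a secreted protease-like gene, had the largest of the 15 rises named, 3.19 ± 0.29 on the log2 scale, and Angptl1, an angiopoietin-like gene, rose by 2.27 ± 0.19. Of 16 genes of the growth factor list tested, Igf2 and Fgf7 rose and Igfbp3, which encodes a binding protein of insulin-like growth factors, fell, a call lost without either KO library or WT.

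Genes of the basement membrane, of matrix turnover and of axon guidance gave fewer calls. Of 23 basement membrane and interface genes tested, Col14a1 and Lama4 rose and Col7a1, Lamc3 and Frem1 fell, and all 5 calls were lost without KO 1, KO 2 or WT. Col7a1, the gene of the collagen that anchors the epidermis, was at 63.2 and 74.0 CPM in KO 1 and KO 2, against 101 in WT and 98.2 in HET. Of 14 remodelling genes, Vcan and Adamts2 rose, and only Vcan, the gene of the proteoglycan versican, kept its call without any 1 library, at 168 and 178 CPM in KO 1 and KO 2, against 100 in WT and 85.4 in HET. Of 19 axon guidance genes, 1 rose and Robo2, Unc5b and Efnb2 fell. Efnb2, an ephrin ligand gene, was at 4.56 and 4.50 CPM in KO 1 and KO 2, against 25.8 in WT and 15.7 in HET (log2 fold change -2.16 ± 0.28), and was the only call of the 4 kept without WT. Of 7 retinoid genes, Rxrg, a retinoid receptor gene, rose and Cyp26b1, which encodes an enzyme that degrades retinoic acid, fell, and both calls were lost without WT.

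Transcription factor genes of the mesenchyme moved both ways. Of 23 tested, Osr1 and Irx3 rose, and Prrx2, Ebf1, Runx1, Tfap2b and Tfap2c fell. Tfap2b and Tfap2c were far lower in control members than in control epithelial barcodes, with ratios given below under RNA of other cells. Ebf1, a factor gene of fibroblast and fat lineages, was at 106 and 96.9 CPM in KO 1 and KO 2, against 257 in WT and 192 in HET (log2 fold change -1.14 ± 0.15). Runx1 was at 24 and 22.1 CPM in KO 1 and KO 2, against 63.6 in WT and 57.5 in HET (log2 fold change -1.39 ± 0.13). Without WT, only these 2 of the 7 kept their calls, while 4 kept it without KO 1 and 5 each without KO 2 and HET. Sox11, a SoxC factor gene named for its difference between ages, was at 13.1 and 10.2 CPM in KO 1 and KO 2, against 69.2 in WT and 54.6 in HET (log2 fold change -2.40 ± 0.18).

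Hox genes, which mark position along the body, were compared with genes of the cell cycle and of cell stress. Of 9 anterior Hox genes tested, Hoxc4 fell, and of 10 posterior ones, Hoxc9 rose, with medians of -0.59 and -0.26 on the log2 scale. Summed posterior over summed anterior Hox CPM was 3.86 and 2.78 in KO 1 and KO 2, against 1.79 in WT and 2.10 in HET. The posterior sums overlapped between the groups, at 441 and 344 CPM in KO 1 and KO 2, against 306 in WT and 347 in HET. The anterior sums were lower in KO, at 114 and 124 CPM in KO 1 and KO 2, against 170 in WT and 165 in HET. The part of body position in the other results was not tested. A UMI of Mki67 or Top2a, genes of dividing cells, was found in 50% and 54.3% of members of KO 1 and KO 2, against 55.9% in WT and 63.1% in HET. After thinning to 2000 UMIs the shares were 22.2% and 28.3% in KO 1 and KO 2, against 31.8% in WT and 30.8% in HET. Of 24 S phase genes tested none was called by edgeR or DESeq2, with 3 at an unadjusted p under 0.05. Of 24 G2 and M phase genes Ube2c fell, a call lost without any 1 library. Its level was 237 and 238 CPM in KO 1 and KO 2, against 355 in WT and 357 in HET. Of these 24 genes only 1 had a positive fold change, with a median of -0.20 on the log2 scale against -0.01 over all genes. Of the 24 S phase genes 18 had a positive fold change, with a median of 0.10. None of 16 dissociation and immediate early genes was called by edgeR or DESeq2, with 1 at an unadjusted p under 0.05. Of 12 hypoxia and glycolysis genes edgeR called none, with 2 at an unadjusted p under 0.05, and DESeq2 called 1. Of 8 interferon genes Ifitm1, Ifitm3 and Ifi27 rose and none fell, and Ifi27 alone kept its call without any 1 library. Ifi27 was at 56.8 and 48.7 CPM in KO 1 and KO 2, against 8.30 in WT and 12.3 in HET (log2 fold change 2.31 ± 0.19).

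RNA of other cells moved with the groups. Of the 15 largest falls, 14 were of genes higher in control epithelial barcodes than in control members, among them the basal keratin gene Krt14, which was at 0.147 and 1.59 CPM in KO 1 and KO 2, against 210 in WT and 135 in HET. After thinning, 0 of 522 members of KO 1 (which allows up to 0.575%) and 0.337% of those of KO 2 had a Krt14 UMI, against 24.4% in WT and 24.5% in HET. All 12 control epidermis genes were tested and 9 fell, with summed levels of 110 and 266 CPM in KO 1 and KO 2, against 1801 in WT and 655 in HET. The 14 genes stood in control members at 0.0269 to 0.132 times their level in control epithelial barcodes. Of the 250 genes that fell, 44 had a ratio of at most 0.132. In both control libraries 85 of the 250 were higher in epithelial barcodes than in members, and 119 were at or above that level in members. The shares over all genes tested are not given here. Lef1 had a ratio of 1.16, Ptch1 0.585, Gli1 0.783 and Dusp6 0.456, above that range, and Dkk1 13.6. Ptch1, Gli1 and Dusp6 were thus lower in control members than in control epithelial barcodes. How much of their RNA in members came from epithelium was not tested. Kremen2, Tfap2b and Tfap2c, at 0.0729, 0.0245 and 0.081, did not exceed it, and Wnt6 and Notch1, at 0.16 and 0.147, just above it. Of 7 erythroid genes 6 rose, with summed levels of 30214 and 33999 CPM in KO 1 and KO 2, against 4837 in WT and 10521 in HET, and Hba-a2, Hbb-bs, Hbb-bt, Alas2 and Car2 were among the 15 largest rises. Of 6 KO epithelium genes 4 rose, with summed levels of 33.2 and 57.4 CPM in KO 1 and KO 2, against 37.6 in WT and 29.3 in HET, and of 5 muscle genes 3 rose, with 76.4 and 43.9 CPM in KO 1 and KO 2, against 22.8 in WT and 20.2 in HET. All 4 calls of the KO epithelium list were lost without WT or HET. Both neuron genes tested fell, Map2 and Stmn2. Stmn2 is also a programme gene, at 149 CPM in members against 5.63 in deep cells over the 4 libraries, so it is no neuron marker here. The Schwann cell and melanoblast gene Dct fell of 4 tested, and the cartilage gene Col9a2 rose of 3 tested. No endothelial, mural, macrophage or mast cell gene was called by edgeR or DESeq2, of 7, 4, 8 and 7 tested, with 1, 1, 4 and 1 at an unadjusted p under 0.05. The part of RNA from other cells in the results on fibroblast genes was not tested beyond these ratios.

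The same rule at E13 chose 2057 cells, 608 and 234 in KO 1 and KO 2, against 535 in WT and 680 in HET. At E13 no cell had a surplus of 2 deep genes, so deep cells were not compared there. All E15 libraries read as male, with Xist at 0.228 to 0.437 and Y-linked Ddx3y at 59.9 to 89.5 CPM without TMM scaling. The E13 libraries were female by an earlier reading of these data. Age and sex thus cannot be told apart, and by these readings KO and control had the same sex within an age. In a fit of all 8 libraries, 119 of 12773 genes (0.932%) were called between KO and control at E13, and the KO effect differed between E15 and E13 for 278 genes (2.18%), higher at E15 for 172 and lower for 106. That count of 278 was 81 without WT of E15, 130 without KO 2, 158 without KO 1 and 197 without HET. Of the 533 genes called at E15, 31 were also called at E13 in the same direction and 15 in the opposite one.

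Lef1 was lower in KO at both ages. In that fit, whose CPM are scaled over all 8 libraries, its log2 effect was -1.93 at E15 and -0.93 ± 0.11 at E13, with 35.7 and 37.6 CPM in KO 1 and KO 2 at E13, against 69.0 in WT and 70.0 in HET, and the difference of -1.01 ± 0.16 had an adjusted p of 0.0149. Ifi27 rose at both ages, by 2.32 at E15 and 1.82 ± 0.16 at E13, and the difference of 0.50 ± 0.24 was not called (adjusted p 0.302). The Hedgehog receptor gene Ptch1 was low at E13, at 1.91 and 3.09 CPM in KO 1 and KO 2, against 3.10 in WT and 2.92 in HET. Dkk1 was not called at E13, at 29.5 and 27.3 CPM in KO 1 and KO 2, against 23.1 in WT and 33.2 in HET. Its KO effect differed between ages by -2.97 ± 0.27 (adjusted p 0.00137).

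The matrix genes that rose at E15 were tested for a difference between ages. Mfap4 at E13 was at 398 and 415 CPM in KO 1 and KO 2, against 270 in WT and 365 in HET, and its effect was higher at E15 by 2.25 ± 0.20 on the log2 scale (adjusted p 0.00137). Eln at E13 was at 57.5 and 68.5 CPM in KO 1 and KO 2, against 78.3 in WT and 76.5 in HET, and its effect was higher at E15 by 1.92 ± 0.16. Of 24 fibrillar matrix genes, the KO effect of 7 differed between ages, counted in either direction. Of 13 FGF and ERK genes 5 differed, and 1 was called at E13. Id1, Id2 and Id3 each differed, by -1.82, -1.22 and -1.46.

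**Figure D5:**
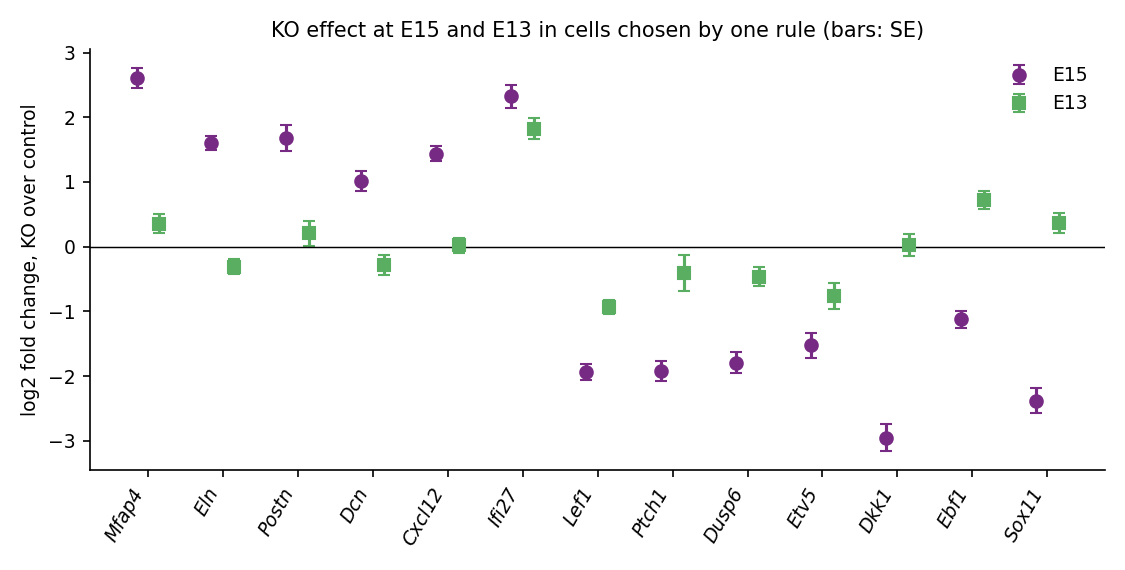
Log2 fold change of KO over control (vertical axis, bars SE) at E15 and E13 for 13 genes in cells chosen by the same rule, from 1 fit of 8 libraries. Lef1 was at -1.93 and -0.93 and Ifi27 at 2.32 and 1.82 at E15 and E13, while Mfap4 was at 2.61 and 0.36.

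Deep cells, with at least 2 more deep than superficial genes, numbered 35 and 57 in KO 1 and KO 2, against 13 in WT and 2 in HET. The control side of that comparison thus held few cells, and the 2 of HET entered it as a whole library. The KO effect differed between superficial and deep cells for 88 of 10920 genes (0.806%), higher in superficial cells for 33 and lower for 55. The effect for Mfap4 was 2.59 in superficial and 0.47 in deep cells, and for Eln 1.59 and -0.72, in a fit of group means. Mfap4, Eln, Postn, Aspn and Lox were higher, with differences in the fit with a library term of 2.39 ± 0.31, 2.36 ± 0.31, 1.82 ± 0.25, 2.53 ± 0.34 and 1.80 ± 0.29 on the log2 scale. The Mfap4 difference was 3.31 without WT, where the 2 HET cells were the only control deep cells. The count was 5 without KO 1, 12 without KO 2, 112 without WT and 66 without HET. It was 0 of 5843 genes by edgeR when cells were thinned to 2000 UMIs, with 259 at an unadjusted p under 0.05. The Mfap4 difference lost its call without KO 1 (1.74), without HET (1.68) and when thinned (2.01), and the Eln difference without KO 1 (1.76) and when thinned (1.75). For Lef1, Ptch1 and Dkk1 the difference was not called, with an SE of 1.79 for Lef1 and 1.42 for Ptch1, so a difference of the size of their falls was not detectable at this depth.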

How the data were processed

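Single-cell RNA of embryonic mouse back skin was measured in 8 libraries from a 10x 3' kit. The deposited values were whole-number UMI counts per gene and barcode. The submitters' processing notes name Cell Ranger, Seurat and mm10, with versions not given in the sources used here, and no source states how barcodes were filtered before deposit. The 8 matrices hold 8339 barcodes and 27998 genes, and 0 columns were left without a sample. Members and gene lists were chosen with earlier results of these data known, so they give no independent support to a direction seen before.

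UMI counts were summed over the members of each library and tested with edgeR 4.0.16 (limma 3.58.1, R 4.3.3) by its quasi-likelihood test, with TMM scaling, filterByExpr with a minimum count of 10 and Benjamini-Hochberg adjustment over all genes tested, called under 0.05. An SE is the size of the log2 fold change divided by the square root of the F statistic. Cells were handled in Python 3.11.15. Exact permutation tests compared shares over libraries, where 2 against 2 cannot go below 0.333. Thinning drew 2000 UMIs per cell, and no member had fewer. A caller of doublets marked 8, 14, 2 and 5 barcodes in KO 1, KO 2, WT and HET at E15. Marked barcodes stayed in, 4 of them among the members. The difference between ages used 1 fit of 8 libraries, and that between superficial and deep cells a fit with a library term.

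The genes named were those of the rule, the 15 largest rises and 15 largest falls with a mean of at least 10 CPM and no overlap between groups, list genes that passed, the 10 genes of smallest p in each difference test, and 25 programme genes. A few of these genes are not reported here. List genes that did not pass were named as such, chosen after their values were seen. Gene positions come from GENCODE on GRCm38. The fits were also tested on counts made with known changes, where the share of false calls between KO and control exceeded the threshold and most differences between superficial and deep cells were missed. Alternatives were other member rules and cell filters, thinning, DESeq2 1.42.0, other scalings and filters on low counts, and leaving out each library.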

Additional observations from a re-analysis of the deposited data

Results flagged for a closer look

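The effect of the KO differed between E15 and E13 for 278 genes in the fit of 8 libraries, and 9 of the 10 with the smallest p follow, each as the E15 minus the E13 log2 effect with its SE. Among fibroblast genes these were 2.25 ± 0.20 for Mfap4, 1.92 ± 0.16 for Eln, -2.97 ± 0.27 for Dkk1, -2.75 ± 0.25 for Sox11 and -1.84 ± 0.19 for Ebf1. Ebf1 was lower in KO at E15, by -1.12, and higher at E13, by 0.72, where it was at 72.3 and 74.4 CPM in KO 1 and KO 2, against 45.2 in WT and 43.6 in HET. Pgm5, which encodes a protein related to phosphoglucomutases, differed by 1.74 ± 0.18. The globin genes Hba-a1 and Hba-a2 differed by 3.67 ± 0.37 and 4.23 ± 0.44. Hba-a2 was at 3433 and 6471 CPM in KO 1 and KO 2 at E15, against 639.96 in WT and 1034 in HET, and at 1064 and 1276 CPM in KO 1 and KO 2 at E13, against 4388 in WT and 3024.5 in HET. Gm10093, which is annotated as a processed pseudogene and whose reads may be shared with a copy, differed by 4.02 ± 0.27. It was at 28.8 and 27.1 CPM in KO 1 and KO 2 at E15, against 30.1 in WT and 27.6 in HET, and at 1.91 and 1.66 CPM in KO 1 and KO 2 at E13, against 35.1 in WT and 26.9 in HET. Age and sex of the libraries cannot be told apart.

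The effect also differed between superficial and deep cells for 88 genes, with 2 deep cells in HET. Of the 10 with the smallest p, 7 had positive differences on the log2 scale, 2.39 for Mfap4, 2.36 for Eln, 2.53 for Aspn, 1.82 for Postn, 1.80 for Lox, 4.63 for Prss35 and 2.23 for Fibin. Negative ones were -3.36 for Hspb1, a small heat shock protein gene, -2.82 for Cma1, a mast cell protease gene, and -2.54 for Prss23, a secreted protease gene. Hspb1 in members was at 20.03 and 17.9 CPM in KO 1 and KO 2, against 145 in WT and 26.7 in HET, so WT stood apart from the other 3 libraries. Cma1 in members was at 357 and 369 CPM in KO 1 and KO 2, against 195 in WT and 557 in HET.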

How the results depend on the processing

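No paired analysis was possible because the control libraries carry no replicate number. The 533 genes called at E15 became 1489 with no filter on low counts, 206 after thinning to 2000 UMIs, 194 without cells with 3 condensate-list genes, 352 without cells with a UMI of Sox2, Sox18 or Foxd1 and 350 in members with no deep gene, and 92 to 354 when 1 library was left out. DESeq2 called 389. Of the 4 libraries, leaving out WT moved the count most. The 278 genes that differed between ages became 1069 with no filter and 139 after thinning, and 81 to 197 with 1 library left out. The 88 that differed between superficial and deep cells became 0 after thinning and 5 to 112 with 1 library left out. The alternatives without cells with Sox2, Sox18 or Foxd1, with no deep gene, and with all other cells in place of the deep cells were chosen after seeing the data. Of the single genes tested, 3 changed sign. Sostdc1 was at -0.11 in members with no deep gene, Bmp3 at 0.42 without cells with Sox2, Sox18 or Foxd1, and the Cma1 difference at 0.46 with all other cells. The cause was not tested. The difference in the share of members lay between -20.5 and -11.8 percentage points over the settings run. Of 128 genes named, 68 lost their call without WT, 40 without KO 1 and 38 without HET, and 44 of 127 without KO 2. Mfap4 lay between 2.43 and 2.84 on the log2 scale and was called in each. With 2 libraries a group, calls rest on the spread shared across genes, and genes with few UMIs in deep cells were beyond this depth.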
